A study of Homo sapiens with 4 samples.

Results

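Members of the BCL2 family and the related death suppressor TMBIM6 moved in different directions when METTL3 was silenced in HepG2 cells. In the authors' deposited gene table BAX, BCL2L1 and BBC3 rose 2.11-fold, 2.50-fold and 3.19-fold. BMF fell 3.46-fold and TMBIM6 4.66-fold in the authors' deposited table. The genes described are the 6 named BAX, BBC3, BID, BCL2L1, BMF and TMBIM6, chosen by name and taken from every table with their Ensembl identifiers, out of 7012 genes listed in at least 1 of 4 tables.

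HepG2 is an established human hepatoma cell line, and METTL3 is the catalytic subunit of the enzyme that places N6-methyladenosine on messenger RNA. There were 2 groups of 2 libraries, cells given an siRNA against METTL3 and cells given a scrambled control siRNA. Both groups were transfected again at 48 and 96 hours and collected on day 7. The design text calls the libraries of a group biological replicates, and the labels name a single siRNA for each group. METTL3 itself fell from 955 to 241 normalized counts, the mean of a group's read counts after the authors' scaling, in the authors' deposited table. None of 7 hepatocyte markers was in the gene table, and a table of changed features cannot show whether a marker is present. Of markers of other cell types, 3 of 4 fibroblast genes (COL3A1, DCN and LUM) were listed lower and CD14 and CDH5 higher, and their part in the results was not tested.

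Proteins of the BCL2 family decide whether the outer membrane of the mitochondrion stays closed. BAX and BAK1 form the pore, guardians such as BCL-xL, the product of BCL2L1, hold them in check, and BH3-only proteins such as BBC3 (also called PUMA), BID and BMF either activate the pore formers or bind the guardians. TMBIM6, also called BAX inhibitor 1, is not a BCL2 protein: it sits in the membrane of the endoplasmic reticulum and limits calcium release and stress signalling there. In hepatocytes BID is known for carrying the death receptor signal to the mitochondrion.

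The 4 tables list only features that the authors called, with an adjusted p under 0.05 and at least a 2-fold change. The 6 genes had 12 isoforms, 5 genes and 10 introns listed, and no exon. Of the 12 isoforms 7 were higher in the knockdown, where 46.7% of all 7251 listed isoforms were higher. Of the 5 genes 3 were higher, beside 41.3% of the gene table, and of the 10 introns 2 were higher, beside 28.3% of the intron table. The median log2 fold change of the 12 isoforms was 1.11, against -1.06 over the isoform table. That of the 5 genes was 1.08, against -1.10, and that of the 10 introns was -1.66, against -1.36. No listed change is under 2-fold, so the sign of such a median only restates which direction holds more rows. The lower ones were 5 isoforms, 2 genes and 8 introns, beside 53.3%, 58.7% and 71.7% of the tables. These are few rows, with 7 of the 10 introns in TMBIM6, so the shares do not set the group apart. Only group values are deposited for these features, so no spread between libraries can be given, and the p-values below are those of the authors' own tests.

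**Figure D1:**
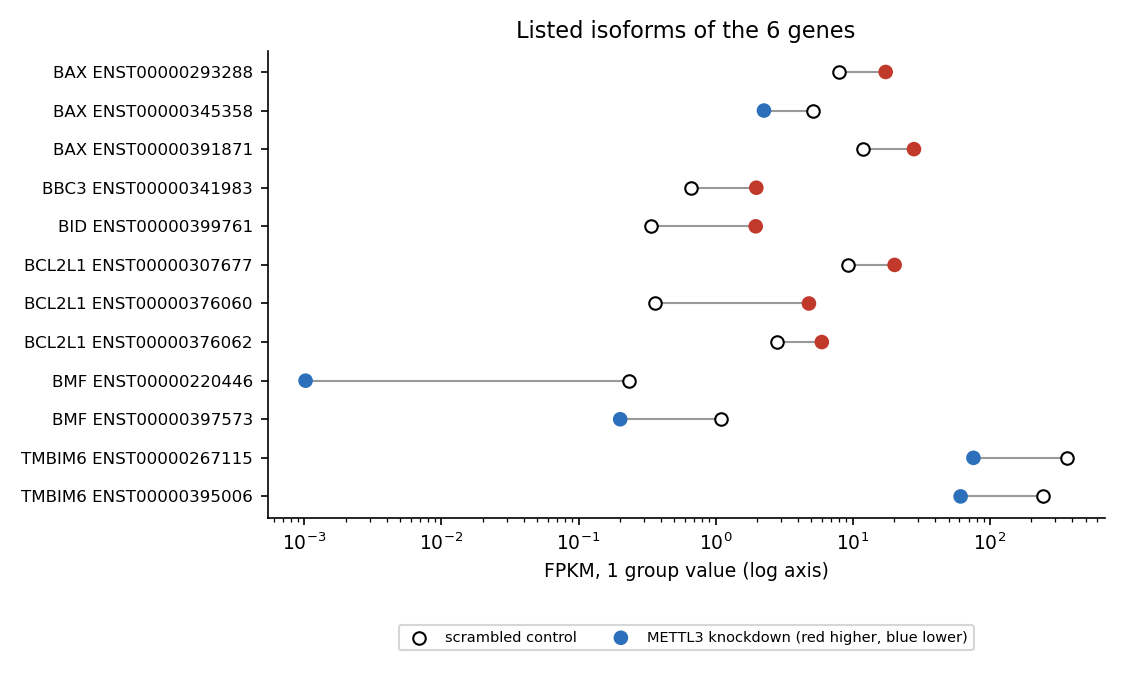
FPKM of the 12 listed isoforms in the scrambled control (white points) and the METTL3 knockdown (filled points, red where higher and blue where lower), on a log axis, with 1 value per group. The 2 TMBIM6 isoforms lie far to the right of the others, at 364 and 245 FPKM in the control, and the isoforms of BMF, BID and BBC3 lie near or below 2 FPKM.

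BAX, the pore-forming effector, lies on chromosome 19 from 48954815 to 48961798 on the plus strand of GRCh38 (GENCODE release 29). The gene went from 280 to 590 normalized counts per the authors' deposited table (log2 fold change 1.08, adjusted p = 9.73e-14). Its 3 listed isoforms did not move together. ENST00000391871 rose from 11.9 to 27.97 FPKM per the authors' deposited table, where FPKM counts fragments relative to transcript length and sequencing depth (adjusted p = 5.82e-07). ENST00000293288 rose from 7.93 to 17.4 FPKM (adjusted p = 4.50e-06), while ENST00000345358 fell from 5.17 to 2.25 FPKM (adjusted p = 0.00496), in the authors' deposited table. The fall of ENST00000345358 was under 2-fold with a pseudocount of 1 FPKM, at a log2 fold change of -0.92, and was -0.14 when recentred on the median of the isoform table. Every listed row is past 2-fold and most are falls, so recentring on a table's median enlarges rises and shrinks or turns falls. The falling isoform has 192 coding codons, the length of the canonical protein BAX alpha, and the rising ENST00000293288 has 218. From control to knockdown the falling isoform went from 20.7% to 4.73% of the summed FPKM of the 3 listed isoforms.

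The BAX isoforms differ at a pair of joins in the coding sequence. The stretches are shown because the isoforms differ in which of them they hold; each has 15 bases on either side of the join, with the bases after it in capitals.
ENST00000345358, exon 1 to exon 2: agcccagaggcggggGGCCCACCAGCTCTG
ENST00000391871, exon 1 to the next exon: cccagaggcgggggtTTTCATCCAGGATCG
ENST00000345358, exon 5 to exon 6: gaccagggtggttggGACGGCCTCCTCTCC
ENST00000293288, exon 5 read on: gaccagggtggttggGTGAGACTCCTCAAG
The first is also in ENST00000293288 and the third is also in ENST00000391871, so no single one of these stretches marks the falling isoform. ENST00000391871 leaves out the 52 bases of exon 2, and ENST00000293288 continues for 884 bases past the end of exon 5. Those 884 bases take in the intron between exons 5 and 6 and the bases of exon 6. In GENCODE release 29 ENST00000391871 also carries a gap of 1 base between its exons 2 and 3, and the model may differ in the annotation the authors used. Isoforms in opposite directions are common in this table: of 288 genes with exactly 3 listed isoforms, 149 (51.7%) had isoforms in both directions, as BAX did.

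**Figure D2:**
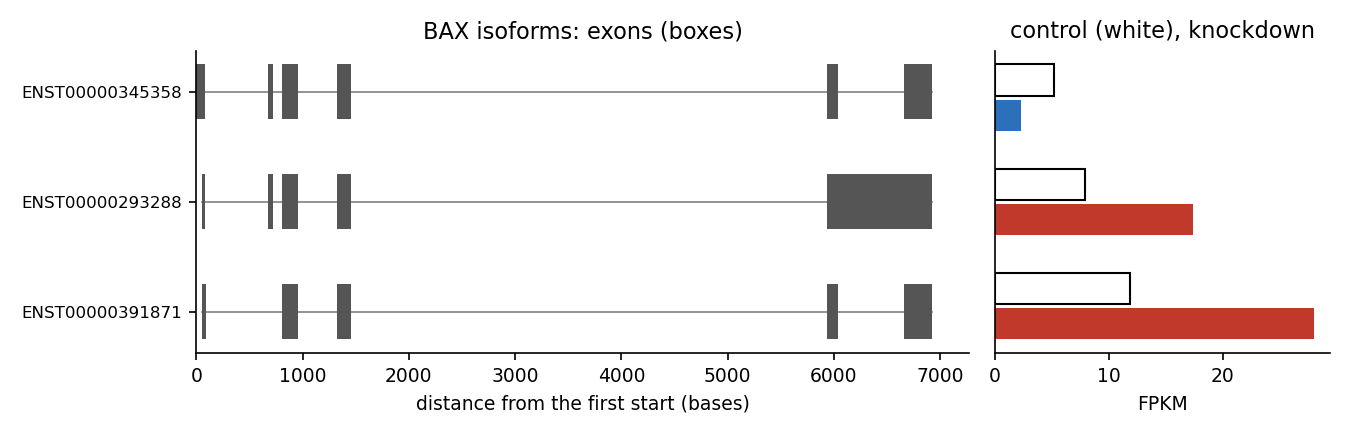
Exons (boxes) of the 3 listed BAX isoforms by distance in bases from the first start, and their FPKM in the control (white bars) and the knockdown (red where higher, blue where lower). ENST00000345358, the lower isoform, has both exon 2 and the separate exon 6. ENST00000391871 lacks the former. ENST00000293288 reads on from exon 5 through the bases of exon 6, so it holds them without a separate exon.

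The promoter of BAX is shown because the 250 bases before a RefSeq start of BAX, BBC3 and BID hold the same 6 letters. Each of these genes has a risen isoform, and BAX also has a fallen one. The letters, CACGTG, read alike on both strands and are printed in capitals. The stretch printed for BAX is chr19:48954625-48954814 on the plus strand (RefSeq, GRCh38.p14), the 190 bases of the window that come before the first BAX start in GENCODE release 29.
BAX: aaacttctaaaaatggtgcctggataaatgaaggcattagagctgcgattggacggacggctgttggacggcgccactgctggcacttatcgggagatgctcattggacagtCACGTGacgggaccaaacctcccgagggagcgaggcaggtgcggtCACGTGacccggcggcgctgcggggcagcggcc
The whole window holds 4 matches, 2 in the stretch shown and 2 after it. Of 35116 promoter windows of the same length, 6.35% hold at least 1 match and 5 hold 4 or more, that of BAX included. BBC3 has 1 match, inside the printed stretch chr19:47232882-47232911 on the minus strand. BID has 1, inside the printed stretch chr22:17774072-17774101 on the minus strand. It lies in 2 of the 5 BID windows, which overlap each other and none of the other 3. The BID match lies inside the span of the gene in GENCODE release 29, and the start of the risen BID isoform is not known.
BBC3: atggggagatttCACGTGagatatagatta
BID: ttgtgtcctctcCACGTGgcctggggattc
The windows of BCL2L1, which rose, and of BMF and TMBIM6, which fell, hold none. The letters were looked at after the values were seen, and a match is a description of these windows only. A half-site pattern for the transcription factor p53 was also looked for. No window of the 6 genes held it, where 5.57% of the 35116 windows did.

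BCL2L1, the gene of the guardian BCL-xL, lies on chromosome 20 from 31664452 to 31723989 on the minus strand of GRCh38. It rose from 589 to 1474 normalized counts per the authors' deposited table (log2 fold change 1.32, adjusted p = 9.95e-36). All 3 of its listed isoforms were higher, which held for 54 (18.8%) of the 288 genes with exactly 3 listed isoforms. ENST00000307677, the most abundant, went from 9.27 to 20.2 FPKM, with an adjusted p listed as 0, per the authors' deposited table. ENST00000376062 went from 2.80 to 5.95 FPKM per the authors' deposited table (adjusted p = 6.69e-08). These isoforms have identical coding sequences of 233 codons, the long form BCL-xL, and their starts lie 301 bases apart.

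The third BCL2L1 isoform, ENST00000376060, rose most, from 0.362 to 4.79 FPKM per the authors' deposited table (13.2-fold, adjusted p = 1.67e-13). Its share of the summed listed FPKM went from 2.91% to 15.5%. The identifier had no match in GENCODE release 29, so its structure is not described. Intron 1 of BCL2L1 was also higher, at 116 normalized counts in the control and 264 in the knockdown, in the authors' deposited table (adjusted p = 0.00157). Such a match is the rule: of 779 listed introns of genes in the gene table, 756 (97.0%) went the same way as their gene. The antisense genes ABALON and AL117381.1 overlap BCL2L1 in GENCODE release 29. No source used here says that the counting used strand, so reads of these genes and of BCL2L1 may not be separable.

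Summed over listed isoforms, BCL2L1 went from 12.4 to 31.0 FPKM, 2.49-fold, close to the 2.50-fold of the gene table. BAX went from 24.98 to 47.6 FPKM, 1.91-fold, against 2.11-fold for its gene. The ratio of BAX to BCL2L1 in summed FPKM was therefore 2.01 in the control and 1.54 in the knockdown. These sums hold only isoforms that the authors listed, and the ratio has no error.

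BBC3, a BH3-only protein known for binding the guardians, lies on chromosome 19 from 47220822 to 47232766 on the minus strand of GRCh38. It rose from 19.9 to 63.3 normalized counts per the authors' deposited table (log2 fold change 1.67, adjusted p = 0.00506). The isoform ENST00000341983, with 131 coding codons, rose from 0.663 to 1.98 FPKM, and intron 1 from 34.9 to 124 normalized counts per the authors' deposited table (adjusted p = 0.00516 and 0.00161). Gene, isoform and intron thus rose 3.19-fold, 2.99-fold and 3.55-fold, where 97.0% of listed introns of genes in the gene table went the way of their gene. In the control BBC3 had the lowest count of the 5 genes in the gene table.

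BID lies on chromosome 22 from 17734138 to 17774770 on the minus strand of GRCh38, and its rows went in opposite directions. The isoform ENST00000399761 rose from 0.337 to 1.96 FPKM per the authors' deposited table (5.82-fold, adjusted p = 0.000807). Intron 6 fell from 357 to 137 normalized counts per the authors' deposited table (log2 fold change -1.38, adjusted p = 1.12e-07), and BID was not in the gene table. The fall of intron 6 is the size of the median change of the intron table, -1.36. Of 380 genes whose listed introns were all lower and whose listed isoforms all went 1 way, 52 (13.7%) had higher isoforms, as BID did. The identifier of the BID isoform had no match in GENCODE release 29, so whether it spans this intron is not described. The microRNA gene MIR3198-1 overlaps BID in that release.

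BMF, a BH3-only protein linked to loss of cell attachment, lies on chromosome 15 from 40087890 to 40108892 on the minus strand of GRCh38. Both the gene and its listed isoforms were lower, and the gene went from 128 to 37.0 normalized counts per the authors' deposited table (log2 fold change -1.79, adjusted p = 2.13e-05). ENST00000397573 fell from 1.09 to 0.201 FPKM per the authors' deposited table (5.41-fold, adjusted p = 3.24e-09). ENST00000220446 fell from 0.235 to 0.00102 FPKM, with an adjusted p listed as 0, per the authors' deposited table. Both isoforms are low, and with a pseudocount of 1 FPKM their log2 fold changes were -0.80 and -0.30, under the 2-fold minimum. The gene's log2 fold change was -0.69 when recentred on the gene table's median, also under 2-fold. The antisense gene BMF-AS1 overlaps BMF.

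TMBIM6 lies on chromosome 12 from 49707725 to 49764934 on the plus strand of GRCh38 and was the most abundant of the 6 genes by FPKM. Its ENST00000267115 went from 364 to 76.0 FPKM and its ENST00000395006 from 245 to 61.2 FPKM, both with an adjusted p listed as 0, in the authors' deposited table. In the control these values ranked 14th and 21st among 7251 listed isoforms. The isoforms share a coding sequence of 237 codons and start 10899 bases apart, and they fell 4.79-fold and 3.998-fold. The second came under 2-fold when recentred, at a log2 fold change of -0.94. The gene fell from 6482 to 1391 normalized counts per the authors' deposited table (log2 fold change -2.22, adjusted p = 9.55e-62).

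All 7 listed introns of TMBIM6 were lower, like the gene, a match found for 97.0% of listed introns of genes in the gene table. Of the 7, intron 10 alone kept a 2-fold fall when recentred on the intron table's median. Intron 10 fell from 14341 to 2572 normalized counts per the authors' deposited table (log2 fold change -2.48, adjusted p = 8.70e-281), with the second highest control value and the second smallest p of 2672 introns. Intron 8 went from 226 to 57.4 and intron 9 from 160 to 52.3 normalized counts per the authors' deposited table. Intron 4 went from 132 to 40.4, intron 5 from 111 to 29.9, intron 6 from 75.6 to 18.9 and intron 7 from 75.1 to 24.5, again per the authors' deposited table. The log2 fold changes of these 6 ran from -1.62 to -1.9995 in the authors' deposited table, with adjusted p from 6.25e-09 for intron 8 to 0.0406 for intron 7. Intron 10 held 2.21 times the gene's own mean in the control and 1.85 times in the knockdown, across tables whose scaling to each other is not known. Of 779 listed introns of genes in the gene table, 118 (15.1%) had a control mean above that of their gene. ENST00000267115 has 10 exons in GENCODE release 29, and the authors' numbering of introns is not described in the sources used here, so intron 10 is not placed. The gene FMNL3, on the opposite strand, and a processed pseudogene, AC020612.2, overlap TMBIM6.

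**Figure D3:**
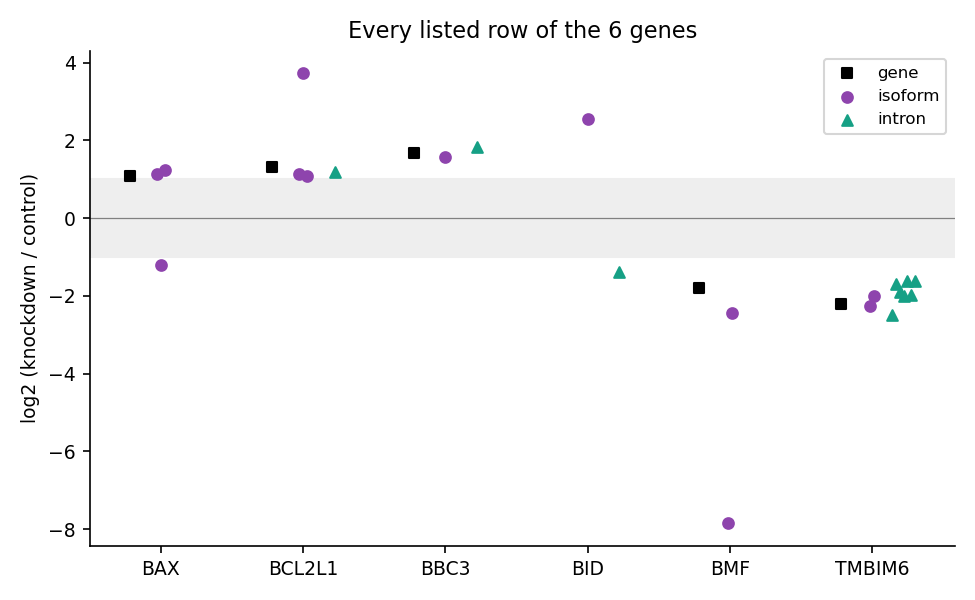
Log2 ratio of knockdown to control for every listed gene (squares), isoform (circles) and intron (triangles) of the 6 genes, from 1 value per group. The grey band marks changes under 2-fold, which the tables leave out. BCL2L1, BBC3, BMF and TMBIM6 each lie on 1 side, while BAX and BID have rows on both.

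The pentamer GGACT is the best known sequence context of the mark that METTL3 places, and its occurrences are shown for that reason. Of the 12 isoforms 9, from 5 genes, matched a GENCODE release 29 transcript, and all 9 held at least 2 copies on the sense strand. Of 4429 listed coding isoforms 89.1% held at least 1 copy, with a median of 3. Their density ran from 1.41 copies per kilobase in TMBIM6 ENST00000267115 to 4.55 in BBC3 ENST00000341983. Over 4429 listed coding isoforms the median was 0.960 copies per kilobase, with quartiles of 0.552 and 1.46, so 8 of the 9 lay above the upper quartile. The BAX isoforms held 2 copies each in 687 to 1358 bases, short beside the median length of 2684 bases, so their density is high at a low count. Isoforms of 1 gene share most of their sequence, and base composition was not accounted for. The rising and falling members both lay above the median, and over the whole table the median was 1.01 for higher and 0.935 for lower isoforms. The deposited files hold no methylation measurement, and a match is not a methylated site.

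The copy nearest the last coding base is printed in 25 bases with GGACT in capitals. It is given for 1 isoform of each gene with a matched transcript, which leaves out BID, and for both ends of BAX.
BAX ENST00000345358: cagctgccttGGACTgtgtttttcc
BAX ENST00000293288: gctggacattGGACTtcctccggga
BBC3 ENST00000341983: tggacgtcagGGACTcggggggcag
BCL2L1 ENST00000307677: gcaaggaccaGGACTccctcctcac
BMF ENST00000397573: acatcgggcaGGACTgacactgtgt
TMBIM6 ENST00000267115: cctgtatgtgGGACTggtggtcatg
In the falling BAX isoform the copy lies 20 bases after the last coding base, in the 3′ UTR. In the rising ENST00000293288 the nearest copy lies 231 bases before that base, in the coding sequence. The rising ENST00000391871 has the same copy as the falling isoform, also 20 bases after, so its position does not separate falling from rising isoforms. The copies of BBC3, BMF and BCL2L1 lie in the 3′ UTR, 32, 69 and 564 bases after the last coding base. That of TMBIM6 is coding, 182 bases before it.

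Around these genes stood a list of 29 other BCL2, BNIP and TMBIM genes, of which 9 were in at least 1 table and 20 in none. Among the 20 were the guardians BCL2 and MCL1, the second pore former BAK1 and the BH3-only gene BCL2L11. Absence from a table does not show that a gene was unchanged, since levels and p-values of such features are not in the files analysed here. Of the 29 genes 6 had isoforms listed, 8 in all, 3 higher and 5 lower, where 46.7% of all listed isoforms were higher. The median log2 fold change of the 8 was -1.16, against -1.06 over the table.

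The higher isoforms were of BH3-only or BCL2-like genes. PMAIP1 (NOXA), which neutralises MCL1, went from 0.301 to 1.08 FPKM per the authors' deposited table (adjusted p = 0.00328). BAD, which binds BCL-xL, went from 0.773 to 2.13 FPKM per the authors' deposited table (adjusted p = 0.0134). BCL2L12 rose from 2.56 to 6.45 FPKM per the authors' deposited table (adjusted p = 0.000202). In the list of 8 BH3-only genes, 5 genes had listed isoforms, BBC3, BID, PMAIP1 and BAD with higher ones and BMF with lower ones. That is 4 of 6 isoforms higher, where 46.7% of all listed isoforms were higher, and all of them lay near or below 2 FPKM.

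The lower isoforms were of the ubiquitin ligase HUWE1, of the mitophagy receptor BCL2L13 and of TMBIM4, a Golgi relative of TMBIM6. TMBIM4 ENST00000398033 fell from 85.02 to 38.4 FPKM, with an adjusted p listed as 0, and ENST00000358230 from 8.06 to 3.16 FPKM (adjusted p = 6.41e-13), in the authors' deposited table. The TMBIM4 gene fell from 1033 to 499 normalized counts per the authors' deposited table (adjusted p = 2.57e-19), less than the gene table's median change, so its sign turns when values are recentred on that median. HUWE1 isoforms fell from 12.2 to 4.93 and from 4.63 to 2.04 FPKM, and BCL2L13 from 0.747 to 0.108 FPKM (adjusted p = 1.66e-05), in the authors' deposited table. Of 6 TMBIM genes, TMBIM6 and TMBIM4 were listed in the gene table, both lower, as were 58.7% of all listed genes.

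Introns of 4 of the 29 genes were listed, all lower, beside 71.7% of the intron table. Intron 10 of HUWE1 and intron 6 of BNIP2 had log2 fold changes of -1.42 each in the authors' deposited table. Intron 5 of the mitophagy receptor BNIP3 and intron 5 of BCLAF1, at -1.24 and -1.09 in the authors' deposited table, turn sign on recentring.

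**Figure D4:**
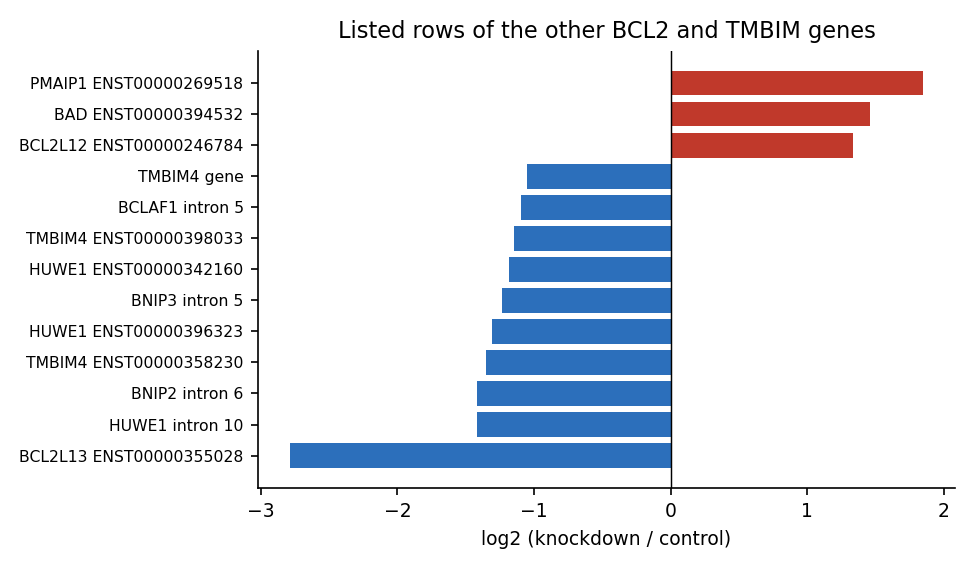
Log2 ratio of knockdown to control for the 13 listed gene, isoform and intron rows of the other BCL2, BNIP and TMBIM genes (red higher, blue lower), from 1 value per group. PMAIP1, BAD and BCL2L12 isoforms are the 3 on the higher side, and BCL2L13 has the longest bar on the lower side.

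The exon table alone gives a value for each library, and 2 of its 474 exons, from the lists used here, are described. The authors had already selected both on these libraries, which leaves the limma p-values without independent weight. In exon 1 of BNIP2, which encodes a BCL2-interacting protein, the control libraries had 1437 and 1475 normalized counts and the knockdown libraries 756 and 761. The groups did not overlap, with means of 1456 ± 26.5 and 759 ± 3.39 (SD, n = 2 per group). The log2 fold change was -0.94 ± 0.14 (SE, limma adjusted p = 0.00361), and 65.6% of listed exons were called lower and 30.6% higher by this test, but it was 0.30 after recentring on the median of listed exons (limma adjusted p = 0.136). Exon 5 of BIRC2, an inhibitor of apoptosis protein, had 76.7 and 67.1 normalized counts in the control libraries, above the 22.6 and 27.8 of the knockdown libraries. Its log2 fold change was -1.48 ± 0.19 (SE, limma adjusted p = 0.00226) and was not called after recentring, at -0.25 (limma adjusted p = 0.299).

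**Figure D5:**
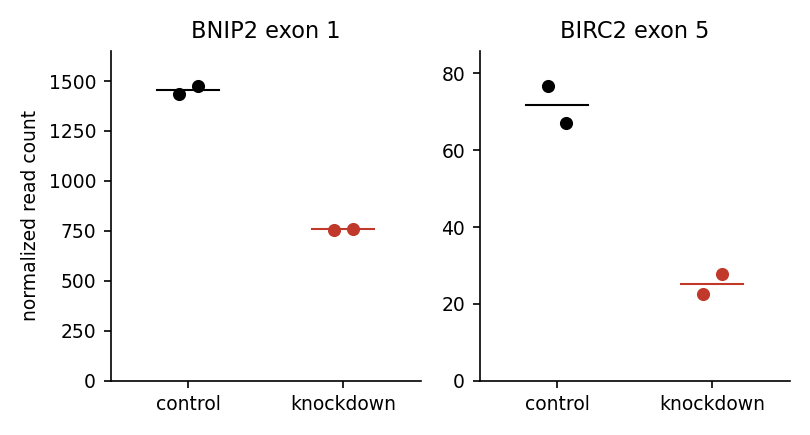
Normalized read count of each library for BNIP2 exon 1 and BIRC2 exon 5, in the control (black) and the knockdown (red), with the group mean as a line and the vertical axis from 0. In both panels the control libraries lie above the knockdown libraries, without overlap.

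Downstream of the pore, APAF1 and CASP9 form the apoptosome. APAF1 fell from 1641 to 745 normalized counts as a gene and the CASP9 isoform ENST00000400777 from 54.9 to 16.8 FPKM, with adjusted p of 1.96e-23 and listed as 0, in the authors' deposited table. Of 11 apoptosome and caspase genes, 6 were in the isoform table, with 5 isoforms higher and 8 lower, where 53.3% of all listed isoforms were lower. CASP10 had isoforms in both directions. ENST00000286186 fell from 1.40 to 0.153 FPKM and ENST00000346817 rose from 0.302 to 1.11 FPKM, per the authors' deposited table. Of 15 mitochondrial release and IAP genes 4 had listed isoforms, 2 higher and 2 lower, beside the same 53.3% lower. The APAF1 isoforms ENST00000359972 and ENST00000339433 fell from 6.51 to 1.88 and from 1.56 to 0.302 FPKM per the authors' deposited table. The channel gene VDAC1 rose from 23.0 to 46.7 FPKM and the caspase inhibitor XIAP fell from 15.02 to 7.47 FPKM per the authors' deposited table, the latter with a sign that turns on recentring.

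Of a list of 12 genes tied to the endoplasmic reticulum, its calcium or its stress, DDIT3 (CHOP) was the 1 in the gene table. It rose from 241 to 534 normalized counts per the authors' deposited table (adjusted p = 5.45e-08). XBP1, the target of the stress sensor IRE1, had ENST00000403532 rising from 4.57 to 11.1 FPKM and ENST00000344347 falling from 30.6 to 14.9 FPKM per the authors' deposited table, the latter with a sign that turns on recentring. The 3 listed isoforms of BSCL2 were higher, with ENST00000301781 going from 1.23 to 3.74 FPKM per the authors' deposited table. A link of BSCL2, or of the other genes of this list, to TMBIM6 was not tested.

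Among 12 regulators of BAX, BBC3 and BID, the 2 in the gene table were lower, as were 58.7% of all listed genes. Of the 12 genes 6 had listed isoforms, 3 higher and 7 lower, where 53.3% of the table was lower. The transcription factor TP63 fell from 64.9 to 6.49 normalized counts per the authors' deposited table (adjusted p = 1.57e-10). E2F1 fell from 769 to 378 normalized counts per the authors' deposited table (adjusted p = 3.04e-15), a change whose sign turns on recentring, and its isoform ENST00000343380 from 17.3 to 7.52 FPKM. All 3 listed isoforms of MDM4 were lower, and the most abundant in the control, ENST00000367182, went from 12.8 to 3.95 FPKM per the authors' deposited table.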

How the data were processed

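RNA of 4 HepG2 libraries was poly(A) selected and sequenced, per the labels' protocols. Software listed in the submitters' processing notes was Cuffdiff 1.0.3, DESeq 1.5.24, TopHat 1.2.0, CASAVA 1.8, Cufflinks and HTSeq, with hg18, and no source used here says which made which table. Per the file headers, the authors deposited a normalized signal per group for genes and introns and per library for exons, with fold ratios, log2 fold changes and p-values, and 1 FPKM value per group for isoforms. Isoform log2 ratios were computed from the FPKM. Every row had passed the authors' thresholds, and totals per library are not in the tables, so depth is unknown.

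Ensembl identifiers were matched to symbols, and no merged locus held a member. Transcripts came from GENCODE release 29 and promoters from RefSeq, both GRCh38, matched by identifier only. For exons, limma 3.58.1 (R 4.3.3) was run on log2(value + 1), Benjamini-Hochberg adjusted over 474 exons, after a test on simulated data. Members and lists were chosen with earlier results of these data known. Every listed row of the members and every listed gene of the BCL2 and TMBIM lists is named. From other lists, the genes named are those in the gene table and the 2 with the smallest isoform p, ties included. Alternatives were stricter p, low-value filters, pseudocounts, recentring, a replicate block and leaving out libraries. The other listed genes of these lists enter the counts only, and 1 result is not reported here.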

Additional observations from a re-analysis of the deposited data

How the results depend on the processing

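Recentring subtracted the median log2 fold change of each table, -1.10 for genes, -1.36 for introns and -1.06 for isoforms, and no row of the 6 genes turned sign. The tables hold only changes of at least 2-fold, more of them falls, so these medians do not measure a shift of all genes. Recentring therefore enlarges every rise and shrinks or turns falls. With the 2-fold minimum kept it left 3 lower member isoforms of 5 (BAX ENST00000345358 and TMBIM6 ENST00000395006 came under 2-fold), 1 lower member gene of 2 (BMF came under 2-fold) and 1 lower member intron of 8. Of the other family genes it left 1 lower isoform, 0 lower genes and 0 lower introns. A mean of at least 1 FPKM left 3 lower member isoforms. At 5 FPKM there were 3 higher and 2 lower, and with a pseudocount of 1 FPKM 2 lower. That pseudocount left 1 higher and 3 lower isoforms of the other family genes, and at the authors' adjusted p under 0.01 there were 0 lower introns of these. A pseudocount added to both groups cannot turn a direction, so only the size of a change was looked at. With 0.1 FPKM all 12 member isoforms stayed past 2-fold, and with 1 FPKM 5 of 12 came under it. BNIP2 exon 1 turned to 0.30 on recentring. Exons called by limma numbered 145 higher and 311 lower. Those averaging 50 normalized counts or more were 70 and 201, and 126 lower on recentring. Leaving out 1 library gave 95 to 134 higher and 243 to 273 lower, the lowest without METTL3_KD replicate 2, where the lone library was assumed to vary like the others. The exons of BNIP2 and BIRC2 were called without any 1 library, with adjusted p from 0.0201 to 0.0290. With the replicate number as a replicate block, 141 exons were higher and 306 lower. The numbers pair nothing in the labels, and deviations of same-numbered libraries had a correlation of 0.0012 over 474 exons. No paired analysis was possible for genes, isoforms and introns because they have 1 value per group. Depth is unknown, so precision of the BMF, BID and BBC3 isoforms at under 2 FPKM cannot be stated.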
